A study of Populus ussuriensis with 20 samples.

Results

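The rooting ends of poplar cuttings were compared 12 h and 4 h after transfer to liquid medium with a set phosphate supply, in 8 of the 20 RNA sequencing libraries of a time course. The libraries were chosen by their labelled time alone: 4 at 12 h and 4 at 4 h, with 2 at each time from medium with 10 µM KH2PO4 and 2 from medium with 200 µM KH2PO4. The species was Populus ussuriensis, a forest tree, and all groups came from cuttings of 3-week-old plants kept for 5 days on solid Woody Plant Medium with sucrose, under a day of 16 h light and 8 h darkness, until root primordia had formed. Each library held total RNA of the basal stem end, that is the primordium together with the stem tissue around it, so a lower value may mean fewer cells of a type or less RNA per cell, and these cannot be told apart. Time after transfer also ran with age, with the hour of the day and with the handling at transfer, and the design cannot tell these apart.

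Adventitious roots are roots that arise from stems or leaves. In stem cuttings a few cells near the vascular tissue divide, organise into a primordium and then push out through the outer stem tissues, under the control of auxin and other hormones. Many plant transcripts also follow the day and night cycle, driven by light and by the circadian clock, and low phosphate is known in plants to alter root growth and the uptake and recycling of phosphate. The deposited table names genes by identifier only, so no gene below is given a function, and the markers of cell types were not analysed here.

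Between 14465879 and 15764764 fragments had been assigned to genes in the 8 libraries, and 24934 genes were tested. Replicates at 12 h differed across genes with an SD of 0.28 (log2) at 10 µM and 0.23 at 200 µM, and replicates at 4 h with an SD of 0.25 at 10 µM and 0.30 at 200 µM. In a principal component analysis of the 8 libraries the first component held 45.9% of the variance and separated the times. It placed the libraries at 12 h at 11.3 and 23.6 (10 µM) and at 26.5 and 30.7 (200 µM), and the libraries at 4 h at -26.8 and -28.8 (10 µM) and at -8.1 and -28.3 (200 µM). Replicate 1 at 200 µM and 4 h thus stood apart from the other 3 libraries of its time, on the side of the libraries at 12 h, and the counts over both levels and the genes named from them are given below with and without it. The second component held 13.3% and placed the 10 µM libraries of each time above the 200 µM libraries.

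**Figure D1:**
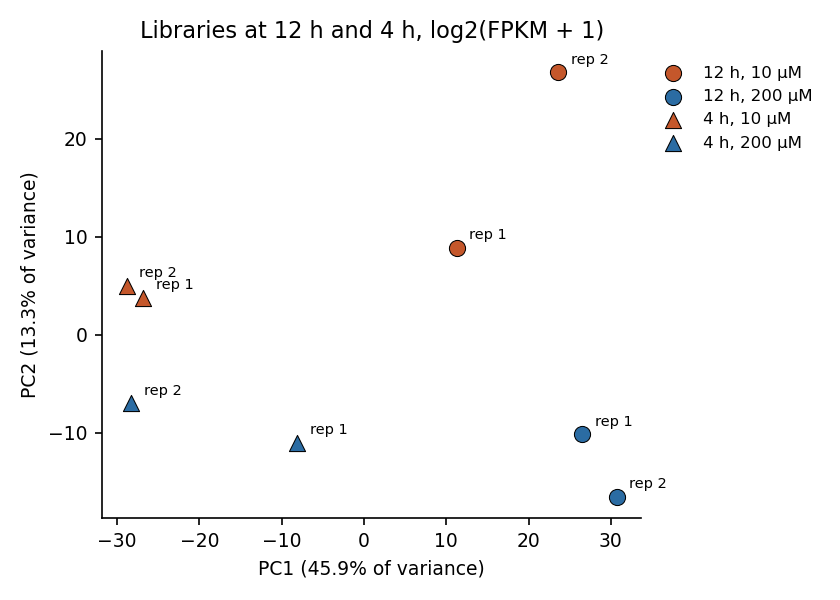
Principal components of the 8 libraries on log2(FPKM + 1). Each point is a library, with the first component (45.9% of the variance) across and the second (13.3%) upward, circles for 12 h, triangles for 4 h, and colours for the phosphate level. All 12 h points lie right of all 4 h points, and the nearest 4 h point, at -8.1, is replicate 1 of the 200 µM pair.

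At 12 h, 3554 of the 24934 tested genes (14.3%) differed from 4 h over both phosphate levels, 1637 of them higher (6.57%) and 1917 lower (7.69%). The values were FPKM, that is fragments scaled to gene length and to the library's total, taken as log2(FPKM + 1), a scale on which the changes of weakly expressed genes are understated. Genes were called by limma with phosphate level as a block, at a Benjamini-Hochberg adjusted p under 0.05. Most changes were small. The median difference was 0.44 (log2, 1.36-fold) for the higher genes and -0.50 (0.709-fold) for the lower genes, and 1116 of the higher and 1196 of the lower genes changed by less than 1.5-fold. A change of at least 2-fold was seen for 125 higher genes and 155 lower genes, and of at least 4-fold for 8 higher and 7 lower genes. The median over all tested genes was 0.01 (log2), and the median 95% confidence interval extended 0.22 on either side.

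The libraries of the 2 times did not overlap for 4842 genes (19.4% of those tested), 2486 with all values at 12 h above all values at 4 h (9.97%) and 2356 with all values at 12 h below them (9.45%). Of the called genes, 1354 higher and 1631 lower genes were free of overlap, which the test itself favours. Without replicate 1 at 200 µM and 4 h, 2909 of the 3554 genes were called again, and the others were replaced by newly called genes. The count of called genes was then 3485, with 1569 higher and 1916 lower. It was 2234 when either 12 h replicate at 200 µM was left out and 2272 when replicate 2 of the 12 h pair at 10 µM was. Leaving out a 4 h library at 10 µM gave 2365 for replicate 1 and 2279 for replicate 2, and the count was 1791 when all 20 libraries shared 1 estimate of the spread.

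Among called genes whose times did not overlap, Potri.013G128800, a gene model of 720 bases, rose furthest. It measured 38.8 and 37.8 FPKM at 10 µM and 50.5 and 30.5 FPKM at 200 µM after 12 h, against 2.34 and 1.11 FPKM at 10 µM and 4.22 and 2.23 FPKM at 200 µM after 4 h. The 12 h libraries thus all exceeded the 4 h libraries, and their 4 values rested on 326 to 573 fragments, against 12 to 44 fragments at 4 h. The log2 difference was 3.59 ± 0.23 (SE; limma, adjusted p = 0.00044), or 3.79 with the first 4 h library at 200 µM left out, and the mean FPKM was 15.9-fold higher at 12 h. In the other libraries the gene averaged 4.52 ± 1.3 FPKM at 2 h, 12.1 ± 6.1 FPKM at 8 h and 89.9 ± 11 FPKM at 24 h (SD, n = 4 each). Its level at 24 h thus exceeded that at 12 h in every library.

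Potri.004G023200, of 1340 bases, also rose but did not go on rising. Its values were 23.1 and 22.9 FPKM at 10 µM and 21.4 and 29.8 FPKM at 200 µM after 12 h, against 1.71 and 1.83 FPKM at 10 µM and 7.17 and 1.77 FPKM at 200 µM after 4 h. The value of 7.17 came from replicate 1 at 200 µM, which lay above the other 3 libraries at 4 h and still below all at 12 h. The log2 difference was 2.79 ± 0.29 (SE; limma, adjusted p = 0.00092), and 3.17 without that library. The gene averaged 2.59 ± 1.1 FPKM at 2 h, 10.2 ± 5.0 FPKM at 8 h and 23.9 ± 4.7 FPKM at 24 h (SD, n = 4 each), so that its levels at 24 h and 12 h differed by less than their SD.

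Potri.001G083700, of 1405 bases, fell furthest by the same rule. It was at 0.324 and 0.616 FPKM at 10 µM and 0.768 and 0.767 FPKM at 200 µM after 12 h, against 17.1 and 17.3 FPKM at 10 µM and 0.935 and 15.1 FPKM at 200 µM after 4 h. The low value at 4 h was again that of replicate 1 at 200 µM, with 19 fragments against 331 to 367 in the other libraries at 4 h and 7 to 17 at 12 h. The log2 difference was -2.65 ± 0.60 (SE; limma, adjusted p = 0.019), and -3.46 without that library. The call was lost, with limma adjusted p from 0.052 to 0.059, when either 4 h library at 10 µM, the second 12 h library at 10 µM or the second 4 h library at 200 µM was left out. At single levels it passed at 10 µM (log2 -3.64; limma, adjusted p = 0.036), though not with all 20 libraries in the fit (0.083). At 200 µM it did not pass (log2 -1.66; limma, adjusted p = 0.27). The call at 10 µM was marginal, as it was lost with 6 of the 8 libraries left out in turn. The gene averaged 5.19 ± 2.9 FPKM at 2 h and 4.38 ± 2.0 FPKM at 24 h (SD, n = 4 each), between its means at 12 h and at 4 h.

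Potri.001G060900, of 1340 bases, was lower as well. It measured 2.43 and 0.944 FPKM at 10 µM and 1.51 and 1.51 FPKM at 200 µM after 12 h, against 17.6 and 16.7 FPKM at 10 µM and 4.69 and 32.8 FPKM at 200 µM after 4 h. No library at 12 h reached the lowest at 4 h, which was replicate 1 at 200 µM. The log2 difference was -2.64 ± 0.45 (SE; limma, adjusted p = 0.0059), and -3.19 without that library. The adjusted p was 0.084 in a fit on all 20 libraries and 0.056 without those at 8 h. Taken alone, neither level passed for this gene (limma, adjusted p = 0.051 at 10 µM and 0.077 at 200 µM). At 2 h its replicates disagreed in the same way at both levels, with 78.5 and 8.36 FPKM at 10 µM and 67.4 and 9.20 FPKM at 200 µM. At 24 h it stood at 2.84 and 10.7 FPKM at 10 µM and at 18.0 and 3.89 FPKM at 200 µM.

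**Figure D2:**
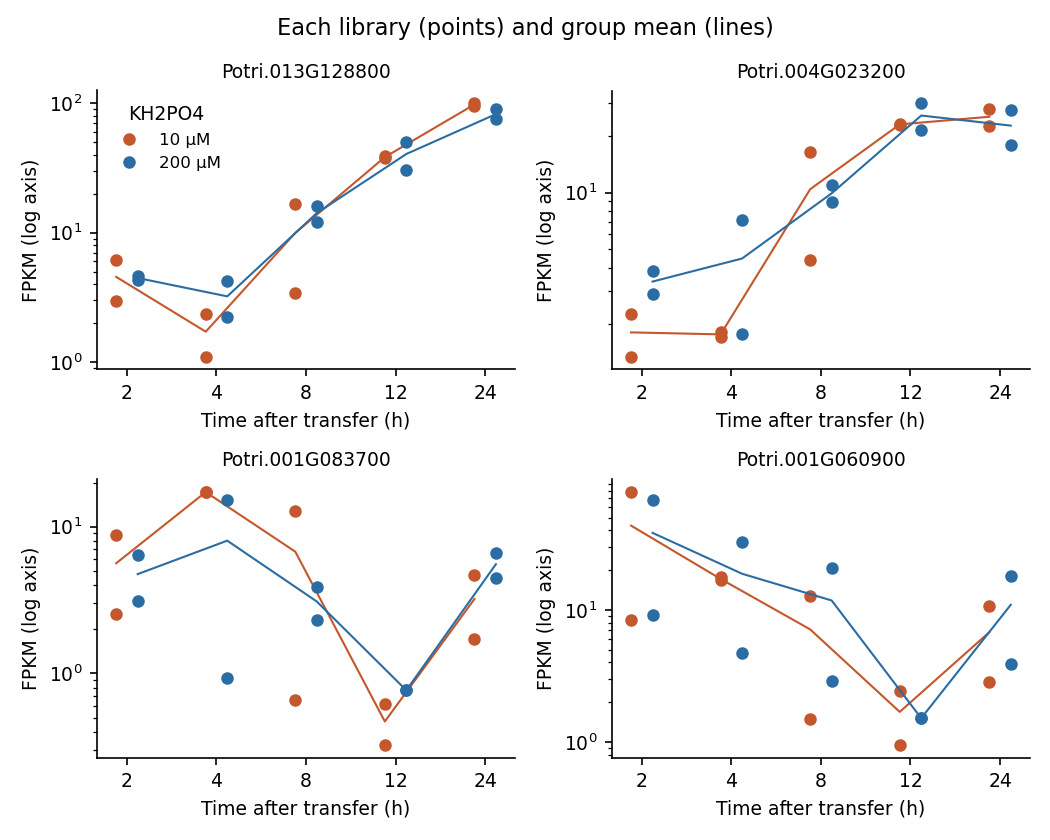
FPKM (log axis) of the 2 genes with the largest rise and the 2 with the largest fall between 4 h and 12 h, over all 5 times. Points are single libraries and lines join group means (n = 2), coloured by phosphate level. Potri.013G128800 stands at 74.7 to 99.9 FPKM at 24 h and Potri.004G023200 at 17.8 to 27.9 FPKM, while both lower genes have their lowest means at 12 h.

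Within each phosphate level, 979 genes differed between 12 h and 4 h at 10 µM (3.93% of those tested), 441 higher (1.77%) and 538 lower (2.16%) at 12 h. At 200 µM the count was 951 (3.81%), with 362 higher (1.45%) and 589 lower (2.36%). These calls came from 2 libraries against 2 with a spread shared by the 4 groups, and a typical 95% confidence interval reached 0.31 (log2, median over genes) to each side. Single libraries decided these counts: at 10 µM 0 genes were called when the second 12 h library was left out, 5 for the second 4 h library and 88 for the first, and at 200 µM 70 for the second 12 h library, 183 for the first and 124 for the second 4 h library. With all 20 libraries in the fit the counts were 117 at 10 µM and 132 at 200 µM, so the lists and the overlaps below hold for this fit of 8 libraries. The changes were alike in the 2 sets of libraries, which share none. Of the genes called at 10 µM, 929 (94.9%) moved the same way in the 200 µM libraries, and of those called at 200 µM, 889 (93.5%) did so in the 10 µM libraries, against 70.2% of all tested genes. Both levels called 417 genes, which was 42.6% of the 10 µM list and 43.8% of the 200 µM list, and 416 of these moved in the same direction.

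Differences were smaller where they had not been used for the call. The 441 genes called higher at 10 µM had a median log2 difference of 0.80 there and of 0.54 at 200 µM, and the 538 called lower had -0.75 there and -0.56 at 200 µM. For the 362 genes called higher at 200 µM the medians were 0.79 there and 0.60 at 10 µM, and for the 589 called lower -0.81 there and -0.55 at 10 µM. Over all tested genes, which do not count as replicates, the correlation between the levels was r = 0.62.

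**Figure D3:**
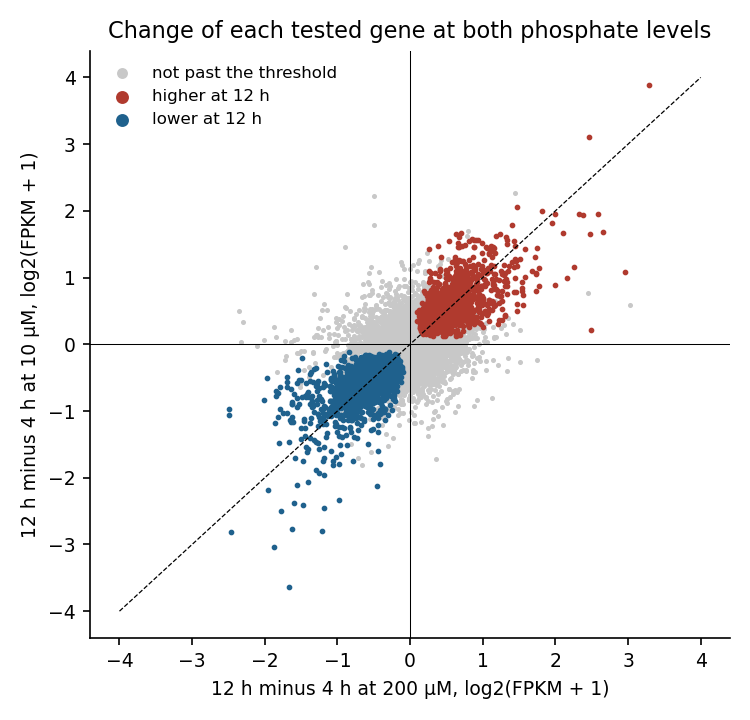
Change from 4 h to 12 h of each tested gene, in log2(FPKM + 1), at 10 µM (upward) against 200 µM (across), from separate libraries. Red and blue mark the 1637 genes higher and the 1917 genes lower at 12 h over both levels, grey the others, and the dashed line is equality. The points spread along this line, with r = 0.62.

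Among the genes named for the single levels, Potri.016G046350 fell at 10 µM to 0.862 and 0.514 FPKM after 12 h, against 10.3 and 15.9 FPKM after 4 h (log2 -3.04 ± 0.70, SE; limma, adjusted p = 0.049). At 200 µM it measured 0.560 and 0.743 FPKM after 12 h, against 1.30 and 15.0 FPKM after 4 h, and did not pass (adjusted p = 0.18). Its call at 10 µM was lost with 6 of the 8 libraries left out in turn, and in the fits on all 20 libraries or without the 8 h libraries, so it was marginal. Potri.013G062950 rose at 200 µM to 21.4 and 14.9 FPKM after 12 h, against 2.73 and 0.564 FPKM after 4 h (log2 2.96 ± 0.41; adjusted p = 0.010). The log2 difference was 3.59 without the first 4 h library at 200 µM, and the call was lost, with limma adjusted p from 0.050 to 0.070, when the second 4 h library or either 12 h library at 200 µM was left out. At 10 µM it measured 7.07 and 3.22 FPKM after 12 h, against 2.07 and 1.46 FPKM after 4 h, and did not pass (adjusted p = 0.17). The difference between its changes did not pass either (log2 -1.88 ± 0.59; adjusted p = 0.71).

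The short gene model Potri.011G149400 (177 bases) fell at 200 µM to 9.32 and 11.8 FPKM after 12 h, against 50.0 and 81.6 FPKM after 4 h (log2 -2.50 ± 0.21, SE; limma, adjusted p = 0.0044). It was also lower at 10 µM, with 28.7 and 26.0 FPKM after 12 h against 50.3 and 58.5 FPKM after 4 h (log2 -0.96 ± 0.21; adjusted p = 0.040). It thus passed at either supply, although its call at 200 µM was lost in the fit on all 20 libraries (limma, adjusted p = 0.12), and its log2 difference there was -2.85 without the first 4 h library at 200 µM. The difference of its changes had an adjusted p of 0.35. Potri.002G022600 (309 bases) fell at 200 µM to 7.18 and 5.45 FPKM after 12 h, against 27.7 and 57.2 FPKM after 4 h (log2 -2.49 ± 0.28; adjusted p = 0.0054). Its log2 difference was -3.0 without the first 4 h library at 200 µM, and the call was lost in the fit on all 20 libraries (limma, adjusted p = 0.21), without the 8 h libraries (0.15) and without the second 12 h library at 200 µM (0.055). At 10 µM it measured 11.0 and 9.48 FPKM after 12 h and 24.0 and 20.6 FPKM after 4 h (adjusted p = 0.072).

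The change with time could not be shown to depend on phosphate for any gene. The interval (95%) of a single gene's difference of changes reached 0.44 (log2, median) to each side. After adjustment over all tested genes, larger differences could be missed too: that of Potri.011G149400, 1.53 ± 0.29 (log2, SE), did not pass. limma's test of the difference called 0 genes, with 1376 (5.52%) at an unadjusted p under 0.05 and a smallest adjusted p of 0.075. It called 12 genes when replicate 1 of the 12 h pair at 200 µM was left out, and 1 gene when replicate 2 of the 4 h pair at 200 µM was. The gene with opposite calls at the levels was Potri.017G081300, singled out after its values were seen. It fell at 10 µM to 6.20 and 6.83 FPKM after 12 h, against 14.1 and 14.3 FPKM after 4 h (limma, adjusted p = 0.0086), and rose at 200 µM to 12.8 and 10.8 FPKM after 12 h, against 7.09 and 7.53 FPKM after 4 h (adjusted p = 0.024). These values rested on 26 to 59 fragments per library. Its difference of changes was -1.64 ± 0.16 (log2, SE) and had the adjusted p of 0.075.

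Phosphate itself separated the same 8 libraries far less than time. The difference of 10 minus 200 µM over both times called 0 genes in limma, with 2305 (9.24%) at an unadjusted p under 0.05 and a smallest adjusted p of 0.086. The median absolute difference over all tested genes was 0.079 (log2) for phosphate and 0.14 for time. The phosphate count was 9 or 13 when replicate 1 or replicate 2 of the 4 h pair at 200 µM was left out, and 1 when replicate 2 of the 12 h pair at 200 µM was. Of the genes named above, Potri.013G128800 had a phosphate difference of -0.33 (log2, adjusted p = 0.72) and Potri.004G023200 of -0.46 (adjusted p = 0.69).

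The genes that changed between 4 h and 12 h were then followed in the 8 libraries at 24 h and 2 h, whose values entered the filter on low values but not the fit. Of the 1637 higher genes, 568 (34.7%) were also called higher at 24 h than at 2 h, against 5.6% of all tested genes, and 0 were called lower. Of the 1917 lower genes, 360 (18.8%) were also called lower, against 3.18% of all tested genes, and 8 were called higher. These shared genes made up 40.7% of all genes called higher at 24 h and 45.4% of all called lower. By sign alone, 93.1% of the higher genes had a positive difference of 24 h minus 2 h, as did 59.8% of all tested genes, and 83.4% of the lower genes had a negative one, as did 40.2%. The median difference of 24 h minus 2 h was 0.33 (log2) for the higher genes and -0.22 for the lower genes. Potri.013G128800 (log2 4.06 ± 0.17, SE; limma, adjusted p = 9.8e-06) and Potri.004G023200 (2.82 ± 0.21; 0.00037) were among the shared genes. Potri.001G083700 (-0.17 ± 0.38; 0.82) and Potri.001G060900 (-1.74 ± 0.82; 0.22) did not pass between 24 h and 2 h.

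The counts of 24 h against 2 h moved with single libraries. Same-numbered libraries at 2 h also deviated together across the levels (r = 0.50). The fit took them as separate, so its adjusted p-values may be too small. Over all genes 2190 were called (8.78%). Leaving out a 24 h library gave 1073 (replicate 1) or 992 (replicate 2) at 10 µM, and 1425 (replicate 1) or 910 (replicate 2) at 200 µM. Leaving out replicate 2 of the 2 h pair at 10 µM gave 1128, and replicate 1 of that pair at 200 µM gave 1363. With 1 library left out, 312 to 751 of the higher genes and 149 to 502 of the lower genes were shared.

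To place each library between the times, its value for every called gene was expressed on a scale where 0 is the mean at 4 h and 1 the mean at 12 h, and the median over the genes was taken. For the 8 libraries at 4 h and 12 h the genes and means came from the other 7. The libraries at 12 h then lay at 0.72 and 0.89 (10 µM) and at 1.02 and 0.98 (200 µM) for the higher genes, and those at 4 h at 0 and -0.07 (10 µM) and at 0.40 and -0.01 (200 µM). For the lower genes the libraries at 12 h lay at 0.61 and 1.11 (10 µM) and at 0.93 and 1.08 (200 µM), and those at 4 h at 0 and 0.01 (10 µM) and at 0.36 and -0.08 (200 µM). Replicate 1 at 200 µM and 4 h was thus the furthest along of the libraries at 4 h in both gene groups, and replicate 1 at 10 µM and 12 h the least far of those at 12 h.

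At 8 h the libraries were spread over most of this scale. At 10 µM replicate 1 lay at 0.26 and replicate 2 at 0.85 for the higher genes, and at 0.12 and 0.94 for the lower genes. At 200 µM the positions were 0.72 and 0.28 for the higher genes and 0.54 and 0.31 for the lower genes. Replicates of 1 group thus differed by up to most of the distance between 4 h and 12 h, and whether the change lies before or after 8 h could not be set from these 4 libraries. At 2 h the positions were -0.05 and 0.09 (10 µM) and -0.17 and 0.31 (200 µM) for the higher genes, and -0.16 and 0.19 (10 µM) and -0.17 and 0.27 (200 µM) for the lower genes, close to the libraries at 4 h.

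At 24 h the higher genes stayed nearer to their level at 12 h than the lower genes did. The libraries at 24 h lay at 0.92 and 0.91 (10 µM) and at 0.63 and 0.86 (200 µM) for the higher genes, and at 0.74 and 0.59 (10 µM) and at 0.21 and 0.46 (200 µM) for the lower genes. The position was higher for the higher genes in each of the 4 libraries. For the lower genes, the 10 µM positions of 0.74 and 0.59 were close to the lowest library at 12 h, 0.61. The 200 µM positions of 0.21 and 0.46 lay below every library at 12 h. For the higher genes, the position of 0.63 at 200 µM lay below the lowest library at 12 h, 0.72. By sign alone, 59.8% of all tested genes were higher at 24 h than at 2 h. How far such a shift over all genes enters the contrast between the 2 groups was not tested. Of the higher genes, 595 (36.3%) had a mean at 24 h beyond that at 12 h and 456 (27.9%) a mean nearer to that at 4 h. Of the lower genes, 283 (14.8%) had a mean at 24 h still below that at 12 h, and 968 (50.5%) one nearer to that at 4 h. Genes called on their values at 12 h tend to be less extreme in other libraries, so part of each distance from 1 follows from the choice. Whether that part was alike for the higher and the lower genes was not tested. In 43 of the higher genes (2.63%) all libraries at 12 h lay above all 16 others of the series, against 67 of all tested genes (0.269%), and in 101 of the lower genes (5.27%) all lay below them, against 121 of all tested genes (0.485%). Such genes have no overlap between 12 h and 4 h, which the call itself favours, so these larger shares follow in part from the choice.

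**Figure D4:**
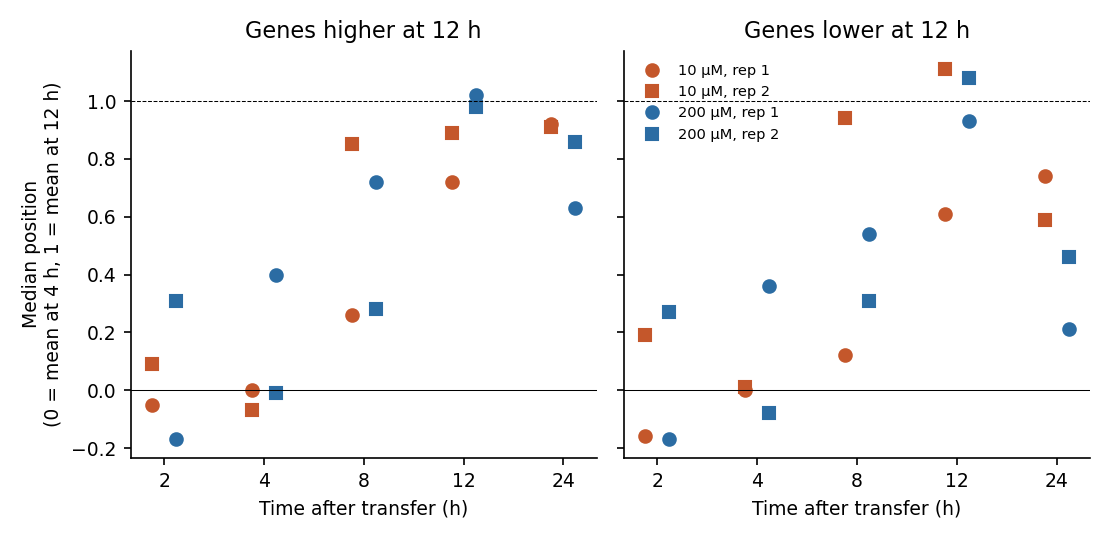
Median position of each library between the mean at 4 h (0) and the mean at 12 h (1), over the genes higher at 12 h (left) and lower at 12 h (right), against time after transfer in hours. Each point is a library, coloured by phosphate level and shaped by replicate. Libraries at 8 h lie between 0.12 and 0.94, and libraries at 24 h between 0.63 and 0.92 for the higher genes and between 0.21 and 0.74 for the lower genes.

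The share of all fragments held by the called genes was then counted. The higher genes were 6.57% and the lower genes 7.69% of those tested. Their median FPKM over the 8 libraries was 12.4 and 13.5, against 8.67 for all tested genes. The genes higher at 12 h held 10.3 and 11.0% of all fragments at 10 µM and 11.0 and 11.1% at 200 µM after 12 h, against 7.97 and 8.08% at 10 µM and 8.90 and 8.09% at 200 µM after 4 h. The lower genes held 8.47 and 7.32% at 10 µM and 7.75 and 7.37% at 200 µM after 12 h, against 11.6 and 11.6% at 10 µM and 10.4 and 11.7% at 200 µM after 4 h. These shares describe genes chosen on the same libraries. At 24 h, in libraries not used in the fit, the higher genes held 9.58 to 10.6% and the lower genes 8.18 to 10.1%, and at 2 h 7.75 to 8.85% and 10.4 to 12.8%.

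Calls became more frequent with abundance. Among genes with a mean of 100 FPKM or more over the 20 libraries 23.9% were called, and among those with a mean of 3 to 10 FPKM 12.3%, while the median SE of the difference was 0.070 (log2) in the more abundant and 0.10 in the less abundant genes. The precision thus rose with abundance. Of the 100 most abundant genes, each with a mean of at least 477 FPKM, 4 were higher and 17 lower at 12 h, against 6.57% and 7.69% of all tested genes. Over all 1156 genes of at least 100 FPKM the directions were equal, with 138 higher and 138 lower (11.9% each).

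The lower genes were shorter than the higher genes. The median length that fitted the FPKM steps was 1787 bases for the higher genes, 1407 bases for the lower genes and 1807 bases for all tested genes. Of genes between 500 and 1000 bases 7.36% were higher and 11.6% lower at 12 h, and of genes of 4000 bases or more 3.99% were higher and 2.82% lower. The median SE of the difference was 0.12 (log2) in the shorter and 0.085 in the longer of these classes, so that the longer genes were measured more precisely and called less often. Within the abundance class of 10 to 30 FPKM, genes under 2000 bases were higher in 6.69% and lower in 12.5% of cases, and genes of 2000 bases or more in 6.96% and 5.02%. At 3 to 10 FPKM these shares were 6.72% and 9.93%, against 4.33% and 4.02%. At 30 to 100 FPKM they were 8.1% and 13.9%, against 13.4% and 7.09%. The lower share was thus smaller in the longer genes of each class, while the higher share went either way. At 30 to 100 FPKM the calls of both directions together were 22% and 20.5%.

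**Figure D5:**
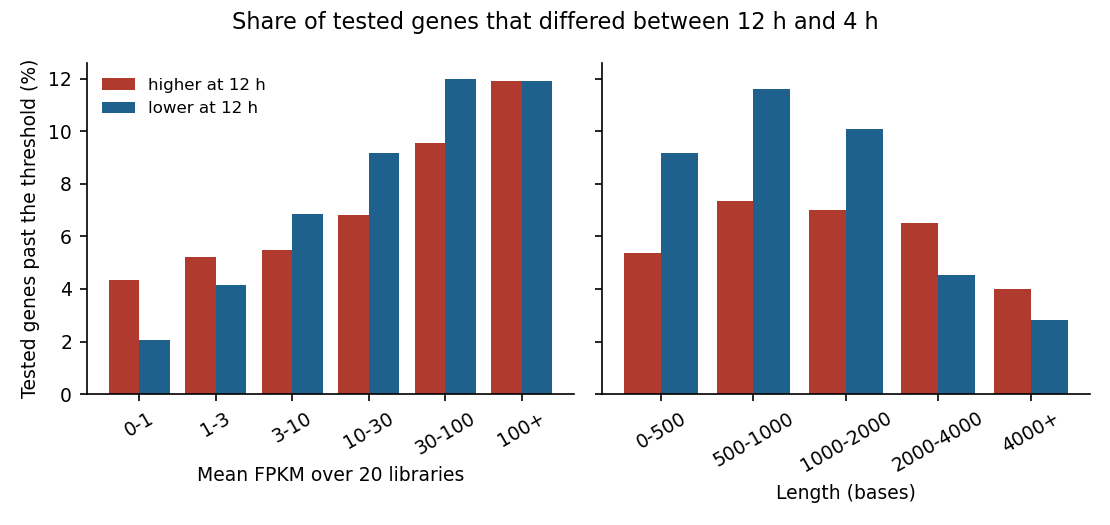
Percentage of tested genes that were higher (red) or lower (blue) at 12 h than at 4 h, by mean FPKM over 20 libraries (left) and by length in bases (right). The share of higher genes rises from class to class up to 11.9%, that of lower genes rises to 12.0% at 30 to 100 FPKM and is 11.9% above, and the share of lower genes goes down to 2.82% in genes of 4000 bases or more.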

How the data were processed

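Total RNA of 20 libraries was sequenced, and the deposited values were FPKM computed by the authors for 34699 genes. HISAT2 2.1.0 and Bowtie2 2.2.3 were used in steps left unnamed, per the submitters' processing notes; for genome build, annotation and counting program the sources used here give nothing. The table held 0 further columns. Genes with at least 1 FPKM in at least 2 of the 20 libraries were kept, without scaling between libraries. limma 3.58.1 in R 4.3.3, with variances moderated along a mean trend, was fitted to the 8 libraries on log2(FPKM + 1) with phosphate level as a block (a median of 9.5 degrees of freedom after moderation). Single levels and the difference of changes came from 1 fit of 4 group means. Tests were two-sided, with Benjamini-Hochberg adjustment over all tested genes. Because each FPKM value is a whole number of fragments over a gene length and a library total, lengths and fragments could be worked out. All 24934 tested genes gave whole fragments, to within 0.013 of a fragment, with a median of 253 per library, and 1 fragment in a gene of 1 kb corresponded to 0.063 to 0.069 FPKM. Both steps were run on simulated data, and the outcome is not given here. For the lengths, the simulation started from the recovered ones, so it could not show whether these were right. Separate plants or cultures for the replicates are not stated in the labels, so p-values reflect the spread between libraries alone, and this may be technical. Replicates differed beyond counting noise in every pair (chi-square per degree of freedom at least 4.11).

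Genes, comparisons and alternatives were chosen with earlier results of these data known. The comparison of 24 h with 2 h, the position scale and the length and abundance classes were added after seeing the data. Named genes were the 2 highest and 2 lowest by log2 difference among called genes whose libraries did not overlap, over both levels and at each level; gene lists by function could not be matched to identifiers and are not analysed here. Alternatives covered the pseudocount, filters, blocks, scaling between libraries, voom, the libraries in the fit and each library left out.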

Additional observations from a re-analysis of the deposited data

Results flagged for a closer look

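Replicate 1 at 200 µM and 4 h lay apart from the other 3 libraries at 4 h in 4 of the measures examined for a library far from the rest of its group of 4. It stood at -8.1 on the first principal component, against -26.8 or lower in the others, and at 0.40 on the scale from 4 h to 12 h over the higher genes, against 0 or lower. It also had 3.03 for Potri.004G023200 and 0.952 for Potri.001G083700 in log2(FPKM + 1). In all of these it lay on the side of the libraries at 12 h. There were 24 such examinations, and chance flags about 1 in 20. These 4 measures describe the same library along the same change, so they do not count as 4 separate flags.

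Potri.017G081300 moved in opposite directions at the phosphate levels in every pair of libraries. Its change from 4 h to 12 h at 10 µM minus that at 200 µM was -1.64 (log2), and limma's adjusted p for this difference was 0.075, so it did not pass over all genes.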

How the results depend on the processing

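The 12 h against 4 h counts stayed within 1.5 times of 3554, and the higher share of the calls at 44.8 to 49.5%, with a pseudocount of 0.1, other filters, no phosphate block, quantile or median scaling, voom on fragments (4206 genes, 3370 shared), no variance trend, and a fit without the 8 h libraries (2477). With all 20 libraries in the fit the counts were 1791 in all, 792 higher and 999 lower, 117 at 10 µM and 132 at 200 µM, and without the 8 h libraries 513 and 510 at the single levels. Scaling moved the median of all genes to between 0.006 and 0.027 (log2).

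With each library left out in turn, the count was 2234 to 3485 over both levels, 934 to 1569 for higher and 1227 to 1938 for lower genes. It was 0 to 1277 at 10 µM, with 0 genes when its second 12 h library was left out, 5 for its second 4 h library and 88 for its first 4 h library. At 200 µM it was 70 to 1166, with 183 and 70 when its first or second 12 h library was left out and 124 for its second 4 h library. Libraries of the other level moved these counts too, to 398 and 389 at 10 µM and 579 and 572 at 200 µM. It was 0 to 12 for the difference of changes, 0 to 13 for phosphate and 910 to 2974 for 24 h against 2 h, of which 312 to 751 higher and 149 to 502 lower genes were shared. The cause of these shifts was not tested.

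With the replicate number within each phosphate level as a block the counts were 3046 over both levels, 571 at 10 µM and 591 at 200 µM. They were 0 for the difference of changes and 1794 for 24 h against 2 h. An effect shared by a number across the levels was not fitted. The labels do not say that a number marks a shared batch. Libraries of the same number at 12 h and 4 h deviated together with r of 0.07 at 10 µM and -0.07 at 200 µM, and across the levels with r of 0.07 at 12 h and 0.07 at 4 h (-0.12 for 10 µM at 12 h with 200 µM at 4 h, 0.08 for 200 µM at 12 h with 10 µM at 4 h), so the numbers were not taken to pair these 8 libraries. At 24 h the r across the levels was -0.01, and at 2 h it was 0.50, where same-numbered libraries did deviate together. None of the genes named by size of change reversed under an alternative, and Potri.017G081300 was not rerun under them. Potri.013G128800 and Potri.004G023200 passed over both levels in all 19 alternatives run. Lists of genes by function were not run.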
